A study of Mus musculus with 6 samples.

Results

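Mitochondrial ribosomal protein genes encode the protein parts of the ribosome inside mitochondria. The genes described here are the 78 whose symbol is Mrpl or Mrps followed by a number and at most 1 letter, out of 49203 named genes in the tables of a total RNA-seq study of mouse Sertoli cell lines. Each gene's level is the sum of its transcripts' FPKM (fragments mapped, per unit of transcript length and of sequencing depth). The symbols divide into 49 Mrpl and 29 Mrps genes. By their place in the ribosome, 51 proteins belong to the large subunit, Mrps18a and Mrps30 among them, and 26 belong to the small subunit. Mrps36 is in current nomenclature no ribosomal subunit but a component of the 2-oxoglutarate dehydrogenase complex. All 78 genes passed the filter on low values, a mean of at least 0.5 FPKM over the libraries.

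The study compared GFP-positive with GFP-negative Sertoli lines, 3 libraries of each, which do or do not express a Y-linked GFP. The GFP-positive libraries carry the labels 2, 4 and 7, and the GFP-negative libraries the labels 9, 11 and M. The labels give the cell type as Sertoli, the somatic nurse cell of the seminiferous tubule, and name no age, strain, passage or treatment. They do not say whether the replicates are separate clones or cultures, so that the p-values measure the spread between these libraries, which may be technical.

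The mitochondrial ribosome translates the messages of the mitochondrial genome, which encode subunits of the respiratory chain and the ATP synthase. Its RNAs are mitochondrial, while its proteins are made in the cytosol from nuclear genes scattered over the chromosomes and are then imported. Some of these proteins have a counterpart in bacterial ribosomes and others are specific to mitochondria. Every nucleated cell type uses them, and Sertoli cells are known for exporting lactate to germ cells while burning fatty acids in their own mitochondria.

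Sequencing depth was estimated for each library as the median ratio of coverage to FPKM over expressed transcripts. It was 11.2, 11.8 and 11.3 Gb in GFP-positive 2, 4 and 7, and 10.02, 9.67 and 8.25 Gb in GFP-negative 9, 11 and M. The 10 most abundant features held 54.1 to 62.2% of the FPKM in GFP-positive libraries and 35.4 to 50.2% in GFP-negative libraries. These shares may count the unnamed isoforms at named loci, pooled together, as a feature. Those isoforms held 5.36 to 8.16% of the FPKM per library. GFP-negative 9 stood apart from the other GFP-negative libraries. On the first principal component, which held 63.0% of the variance, the GFP-positive libraries lay at -65.7, -50.2 and -60.9, while GFP-negative 9 lay at 20.1, GFP-negative 11 at 87.6 and GFP-negative M at 69.2. FPKM was scaled by the median of ratios between libraries before testing.

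Mitochondrial ribosomal protein genes were more often higher than lower in GFP-positive lines, except when libraries were scaled to an equal sum of FPKM, where 5 rose and 12 fell while the median of all features moved to -0.87. Of the 78 genes, 42 rose, which is 53.8%, and 1 fell, Mrps23 (limma on log2(scaled FPKM + 0.5), Benjamini-Hochberg adjusted p under 0.05 over 15095 features). Of all features tested, 14.5% rose and 11.4% fell. The median log2 difference of the 78 genes was 0.97, against 0.02 for all features. For 65 genes the difference was above 0 and for 13 it was below 0. In 53 genes every GFP-positive library lay above every GFP-negative library, and in 2 genes, Mrps23 and Mrps10, every GFP-positive library lay below, whereas 23.6% and 22.1% of all features separated in these directions. The number of genes called depends on the libraries. Without GFP-negative M, limma called 3 genes higher, Mrpl16, Mrpl40 and Mrps16, and without GFP-positive 7 it called 6, these 3 and Mrpl22, Mrps11 and Mrps12, so that of the 42 genes all but these 6 lost the call in both fits, while the median stayed at 0.87 and 0.99. Without GFP-positive 4 the number was 26, and without the filter on low values it was 17. Calls fell over all features too. Of all features 2.1% rose without GFP-negative M, 2.67% without GFP-positive 7, 8.42% without GFP-positive 4 and 2.07% without the filter.

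The summed level of the 78 genes was 1927, 2222 and 2144 scaled FPKM in GFP-positive 2, 4 and 7, against 1114, 843.0 and 779.6 scaled FPKM in GFP-negative 9, 11 and M. Each GFP-positive sum was above each GFP-negative sum. The sum averaged 2098 ± 153 in GFP-positive libraries and 912.2 ± 178 in GFP-negative libraries (SD, n = 3 each). The most abundant genes carried much of it. Mrpl33, Mrps21, Mrpl54 and Mrpl52 together held 27.1 to 32.7% of the sum in GFP-positive libraries and 26.4, 12.0 and 15.7% in GFP-negative 9, 11 and M. The median gene, which these 4 do not set, stood at 15.5 ± 1.27 scaled FPKM in GFP-positive libraries and 8.77 ± 0.67 in GFP-negative libraries (SD, n = 3 each). In bulk RNA a lower content per cell and fewer cells of a type cannot be told apart.

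**Figure D1:**
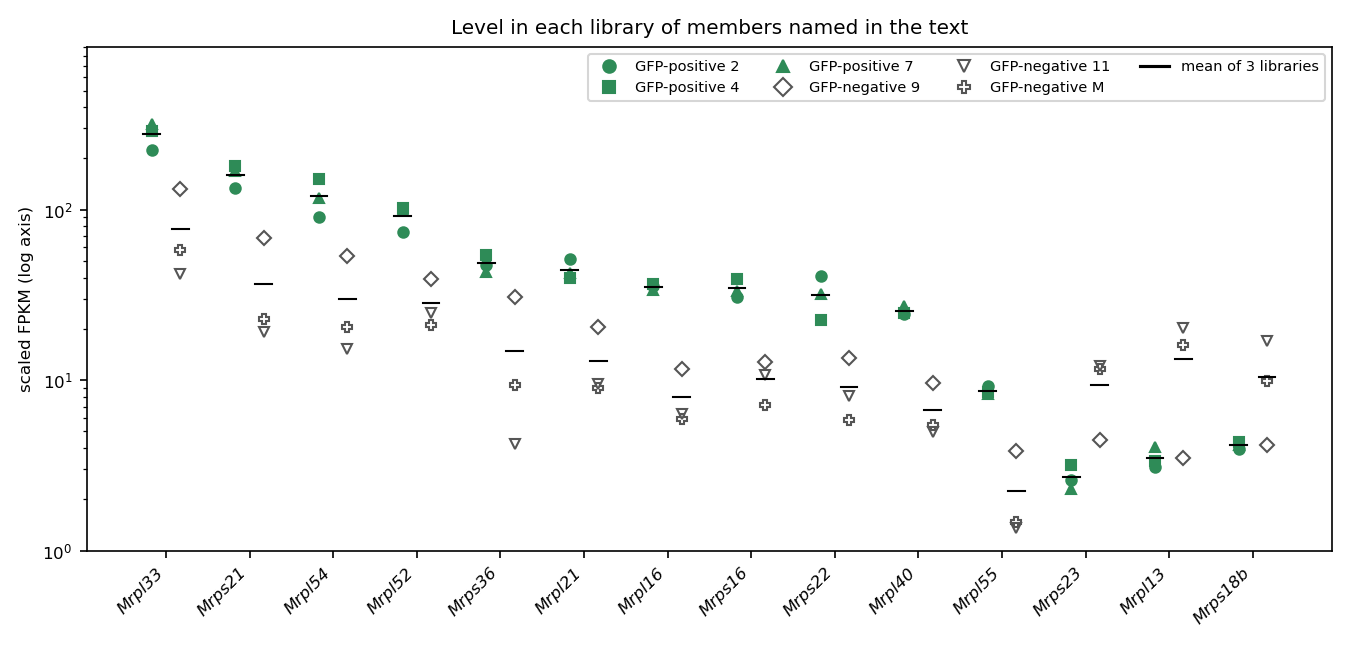
Scaled FPKM (log axis) of 14 of the genes described in the text, with filled symbols for the GFP-positive libraries to the left, open symbols for the GFP-negative libraries to the right and a bar at the mean of the 3 libraries. Mrpl16 lay between 33.7 and 36.4 in GFP-positive libraries and between 5.95 and 11.7 in GFP-negative libraries, and the diamonds of GFP-negative 9 stand nearest to the filled symbols in the genes that rose.

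Genes of both subunits rose, where 14.5% of all features rose and 11.4% fell. In the large subunit 28 of 51 rose and 0 fell by limma's adjusted p, while 1 was lower at an unadjusted p under 0.05, Mrpl13, and the median log2 difference was 1.00. Of the small-subunit genes, 13 of 26 rose and 1 fell, with 2 lower at an unadjusted p under 0.05 and a median of 0.91. By origin, 17 of 30 bacterial-type and 11 of 21 mitochondria-specific genes of the large subunit rose, with medians of 1.03 and 0.85. In the small subunit 8 of 16 bacterial-type genes rose, with a median of 0.91. Its 10 mitochondria-specific genes had a median of 0.65, 5 rising and 1 falling. The difference between subunits was not tested. The ratio of the summed large-subunit to the summed small-subunit level was 2.40 to 2.49 in GFP-positive libraries and 2.50 to 2.59 in GFP-negative libraries. The ratio of their median genes was 1.37 to 1.68 in GFP-positive libraries and 1.15 to 1.22 in GFP-negative libraries, so that the ratio of sums was lower and the ratio of medians higher in GFP-positive libraries.

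**Figure D2:**
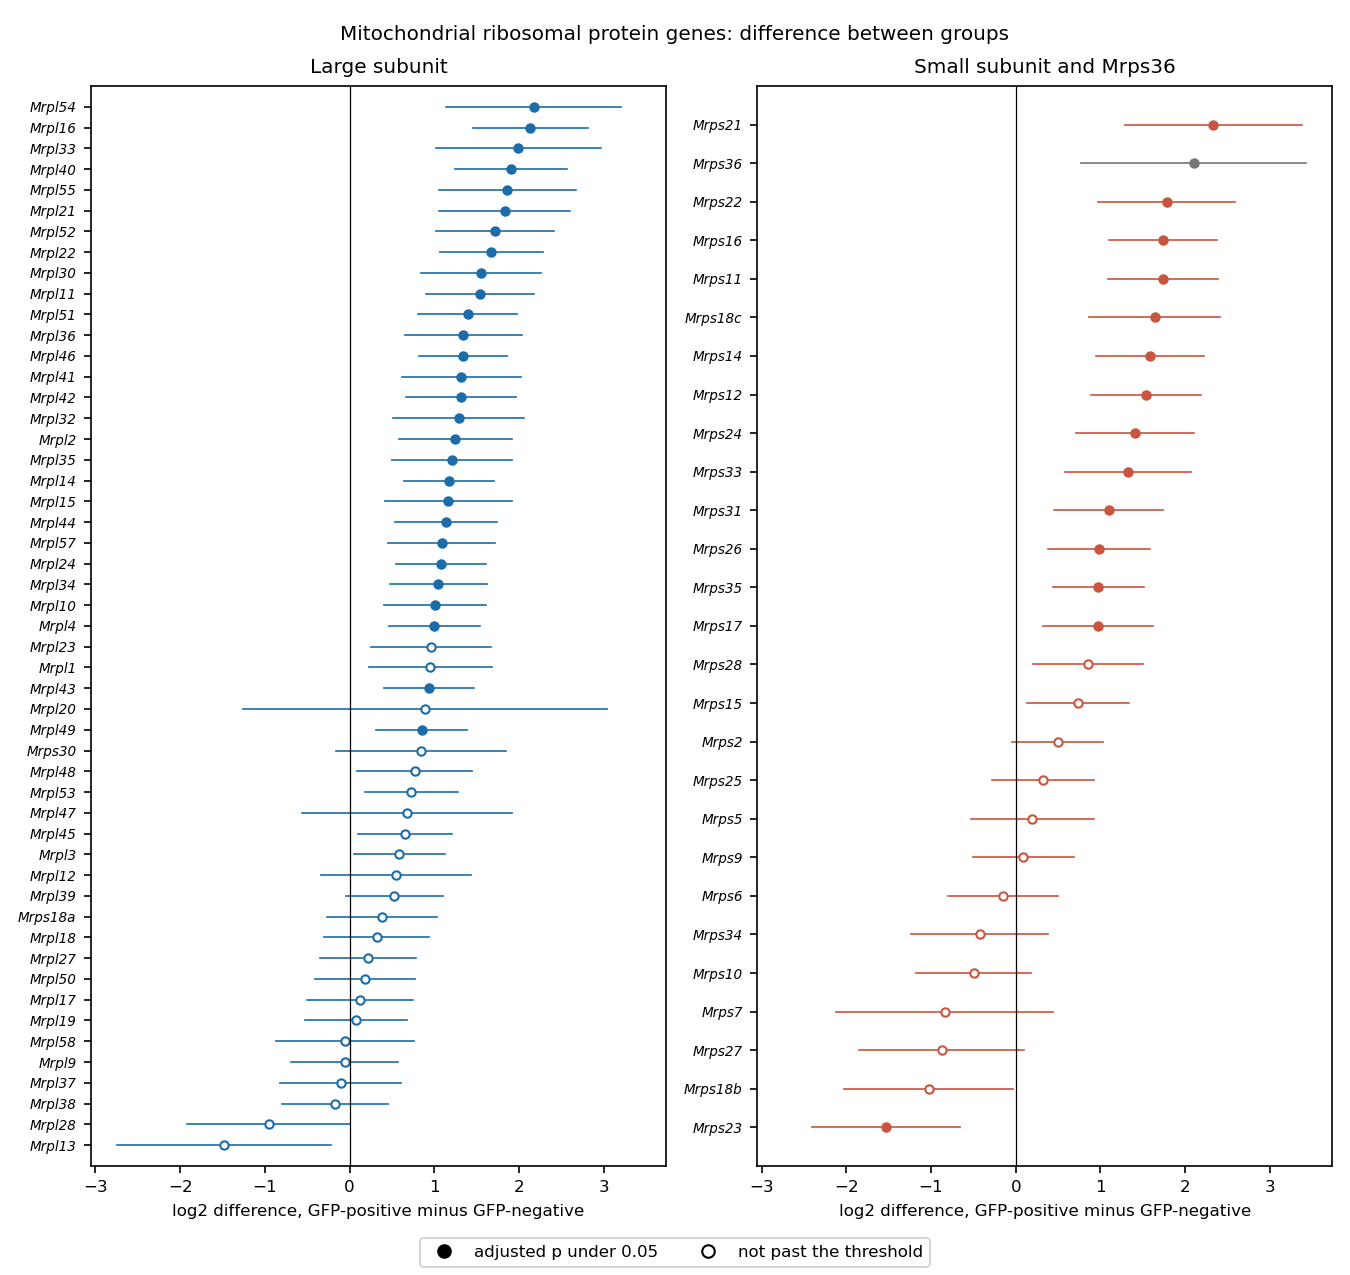
Log2 difference in scaled FPKM, GFP-positive minus GFP-negative, of each of the 78 genes, by subunit, with limma's 95% interval as a line and a filled point where the adjusted p was under 0.05. Mrps21 stood highest at 2.33 and Mrps23 lowest at -1.53, and 65 of the 78 genes lay above 0 with median-of-ratios scaling, while an equal sum of FPKM put their median at -0.017.

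Promoter windows are shown for 4 genes that differ in their response. Mrps21 had the highest log2 difference, Mrps11 shares its promoter with Mrpl46 and both rose, Mrpl16 had the lowest adjusted p, and Mrps23 was the gene that fell. The windows run from 250 bases before to 50 bases after the annotated start and come from RefSeq on GRCm38.p6. Capitals mark matches, on either strand, to the core letters of factors known for promoters of nuclear-encoded mitochondrial genes, or the TATA box.
Mrps21, chr3:95871465-95871764, minus strand: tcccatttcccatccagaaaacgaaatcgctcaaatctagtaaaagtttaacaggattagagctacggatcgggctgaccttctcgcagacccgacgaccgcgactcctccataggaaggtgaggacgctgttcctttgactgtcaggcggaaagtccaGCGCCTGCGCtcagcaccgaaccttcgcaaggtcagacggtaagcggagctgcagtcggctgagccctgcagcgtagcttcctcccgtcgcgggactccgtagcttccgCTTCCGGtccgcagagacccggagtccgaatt
Mrps11, chr7:78782881-78783180, plus strand: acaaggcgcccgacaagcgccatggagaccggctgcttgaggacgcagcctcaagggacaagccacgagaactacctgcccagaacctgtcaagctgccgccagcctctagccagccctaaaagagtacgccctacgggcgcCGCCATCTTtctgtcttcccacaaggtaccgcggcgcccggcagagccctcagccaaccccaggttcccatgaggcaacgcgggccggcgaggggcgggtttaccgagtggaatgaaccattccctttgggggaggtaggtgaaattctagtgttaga
Mrpl16, chr19:11770165-11770464, plus strand: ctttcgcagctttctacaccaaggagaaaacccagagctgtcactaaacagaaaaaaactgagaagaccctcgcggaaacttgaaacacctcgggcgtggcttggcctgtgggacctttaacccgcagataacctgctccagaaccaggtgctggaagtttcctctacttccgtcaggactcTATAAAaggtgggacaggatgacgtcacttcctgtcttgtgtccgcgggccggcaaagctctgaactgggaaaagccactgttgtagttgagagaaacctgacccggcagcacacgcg
Mrps23, chr11:88204138-88204437, plus strand: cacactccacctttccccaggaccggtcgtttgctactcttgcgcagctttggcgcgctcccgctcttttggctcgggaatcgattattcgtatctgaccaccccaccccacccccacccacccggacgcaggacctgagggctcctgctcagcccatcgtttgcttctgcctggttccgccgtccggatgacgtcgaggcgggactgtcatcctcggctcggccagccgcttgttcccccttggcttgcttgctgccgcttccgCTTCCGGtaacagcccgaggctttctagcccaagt
The ETS core CCGGAAG reads CTTCCGG in the Mrps21 and Mrps23 windows, after the annotated start in both, from base 19 to base 25 in Mrps21 and from base 16 to base 22 in Mrps23. Mrps21 also holds the NRF1 core, GCGC and again GCGC after any 2 bases, Mrps11 holds the YY1 core AAGATGGCG on the other strand, and Mrpl16 holds TATAAA. The same ETS letters thus stand just downstream of the start of a gene that rose and of a gene that fell.

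RefSeq windows were found for 69 of the 78 genes, 75 windows in all. A gene was counted if any of its windows held the letters, for these and for all tested genes. The share of all windows counts single windows instead, also of genes not tested, and is a different unit. CCGGAAG stood in 26 of the 69 genes, which is 37.7%, against 8.86% of all 32851 windows and 20.7% of the 9785 tested genes with a window. The NRF1 core stood in 14 genes (20.3%), against 6.23% of all windows and 15.4% of tested genes. AAGATGGCG stood in 8 genes (11.6%), against 1.40% of all windows and 3.67% of tested genes. TATAAA stood in 5 genes (7.25%), against 13.6% of all windows and 8.61% of tested genes. In no window of these genes did matches to 2 motifs overlap. Among the genes that rose and the rest, CCGGAAG stood in 15 of 38 (39.5%) and in 11 of 31 (35.5%), the NRF1 core in 7 (18.4%) and 7 (22.6%), AAGATGGCG in 5 (13.2%) and 3 (9.68%), and TATAAA in 4 (10.5%) and 1 (3.23%). Differences between these shares were not tested. These counts are descriptions, and a match is not evidence of binding.

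Among bacterial-type genes of the large subunit, Mrpl16 had the lowest adjusted p. Its protein sits near the site where tRNAs meet the large subunit, and the gene lies at chr19:11747755-11752324 on the plus strand (mm39). Mrpl16 had 35.8, 36.4 and 33.7 scaled FPKM in GFP-positive 2, 4 and 7, against 11.7, 6.37 and 5.95 in GFP-negative 9, 11 and M. The groups did not overlap, and GFP-negative 9 was the nearest to the GFP-positive libraries. The log2 difference was 2.14 (SE 0.30, limma adjusted p = 0.00676), a 4.39-fold higher level, and Mrpl16 passed the threshold under every alternative run.

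Mrpl33, at chr5:31754279-31821728 on the plus strand, encodes a small bacterial-type protein and had the highest mean of the 78 genes at 177.0 scaled FPKM. It had 225.0, 287.8 and 317.0 scaled FPKM in GFP-positive 2, 4 and 7, against 132.6, 41.8 and 57.9 in GFP-negative 9, 11 and M. GFP-negative 9 thus stood more than 1.5 times above both other GFP-negative libraries. The log2 difference was 1.99 (SE 0.43, limma adjusted p = 0.0153).

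Mrpl21 (chr19:3332901-3342837, plus strand) and Mrpl55 (chr11:59093312-59096960, plus strand) encode further bacterial-type proteins of the large subunit. Mrpl21 had 51.0, 39.6 and 42.8 scaled FPKM in GFP-positive 2, 4 and 7, against 20.5, 9.50 and 9.00 in GFP-negative 9, 11 and M, a log2 difference of 1.83 (SE 0.34, limma adjusted p = 0.0112). Mrpl55 was scarcer, with 9.25, 8.49 and 8.31 scaled FPKM in GFP-positive 2, 4 and 7, against 3.83, 1.37 and 1.48 in GFP-negative 9, 11 and M. Its log2 difference was 1.86 (SE 0.35, limma adjusted p = 0.0116). In both genes the 3 GFP-positive libraries lay close together and GFP-negative 9 was the highest of its group.

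Among mitochondria-specific genes of the large subunit, Mrpl54 (chr10:81100547-81102768, minus strand) had 90.7, 152.4 and 117.0 scaled FPKM in GFP-positive 2, 4 and 7, against 53.6, 15.3 and 20.4 in GFP-negative 9, 11 and M. The log2 difference was 2.17 (SE 0.45, limma adjusted p = 0.0143). Mrpl52 (chr14:54664366-54667213, plus strand) had 73.7, 102.1 and 100.2 scaled FPKM in GFP-positive 2, 4 and 7, against 39.2, 24.7 and 21.0 in GFP-negative 9, 11 and M, a log2 difference of 1.72 (SE 0.31, limma adjusted p = 0.0103). Neither gene overlapped between groups. Mrpl40 (chr16:18690768-18695612, minus strand) had 24.5, 24.6 and 27.2 scaled FPKM in GFP-positive 2, 4 and 7, against 9.62, 4.99 and 5.44 in GFP-negative 9, 11 and M. Its log2 difference of 1.91 (SE 0.29, limma adjusted p = 0.00742) passed the threshold under every alternative run. Human MRPL40 lies in the region deleted in velocardiofacial syndrome.

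In the small subunit, Mrps21 (chr3:95769946-95778831, minus strand), a bacterial-type protein, had the highest log2 difference of the 78 genes. It had 133.2, 180.7 and 167.5 scaled FPKM in GFP-positive 2, 4 and 7, against 68.6, 19.1 and 22.9 in GFP-negative 9, 11 and M. The log2 difference was 2.33 (SE 0.46, limma adjusted p = 0.0122). GFP-negative 9 lay about midway on a log scale between the other GFP-negative libraries and the GFP-positive ones.

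Mrps16 and Mrps22 were among the first genes of the mitochondrial ribosome in which human mutations were linked to a combined respiratory chain deficiency. Mrps16 (chr14:20439372-20443702, minus strand), of the bacterial type, had 30.8, 39.2 and 33.5 scaled FPKM in GFP-positive 2, 4 and 7, against 12.7, 10.7 and 7.14 in GFP-negative 9, 11 and M, a log2 difference of 1.74 (SE 0.28, limma adjusted p = 0.00795). Mrps22 (chr9:98470783-98483713, minus strand), specific to mitochondria, had 40.6, 22.4 and 32.1 scaled FPKM in GFP-positive 2, 4 and 7, against 13.5, 8.05 and 5.81 in GFP-negative 9, 11 and M. Its log2 difference was 1.78 (SE 0.36, limma adjusted p = 0.0131). Mrps22 varied more among the GFP-positive libraries than Mrps16 did, without overlap between groups for either.

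Mrps11, of the small subunit, and Mrpl46, of the large subunit, start 30 bases apart on opposite strands of chromosome 7, at chr7:78432867-78442737 and chr7:78424984-78433279, and their RefSeq promoter windows share 141 bases. Both were chosen for this position after their values were seen. Mrps11 had 34.7, 47.2 and 39.7 scaled FPKM in GFP-positive 2, 4 and 7, against 16.5, 9.97 and 9.73 in GFP-negative 9, 11 and M. Mrpl46 had 15.5, 15.5 and 16.5 scaled FPKM in GFP-positive 2, 4 and 7, against 6.73, 5.63 and 5.56 in GFP-negative 9, 11 and M. The log2 differences were 1.74 for Mrps11 (SE 0.29, limma adjusted p = 0.0084) and 1.34 for Mrpl46 (SE 0.23, limma adjusted p = 0.00945). The annotated genes overlap, so that their reads can be told apart only by strand, and no source used here states the strand setting of the assembly. The same limit holds more widely. Of all the genes described here, 35 overlap a gene on the opposite strand, Mrpl33, Mrpl21 and Mrps21 among them. A further limit is that 10 overlap a gene on the same strand, where strand does not separate the reads.

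**Figure D3:**
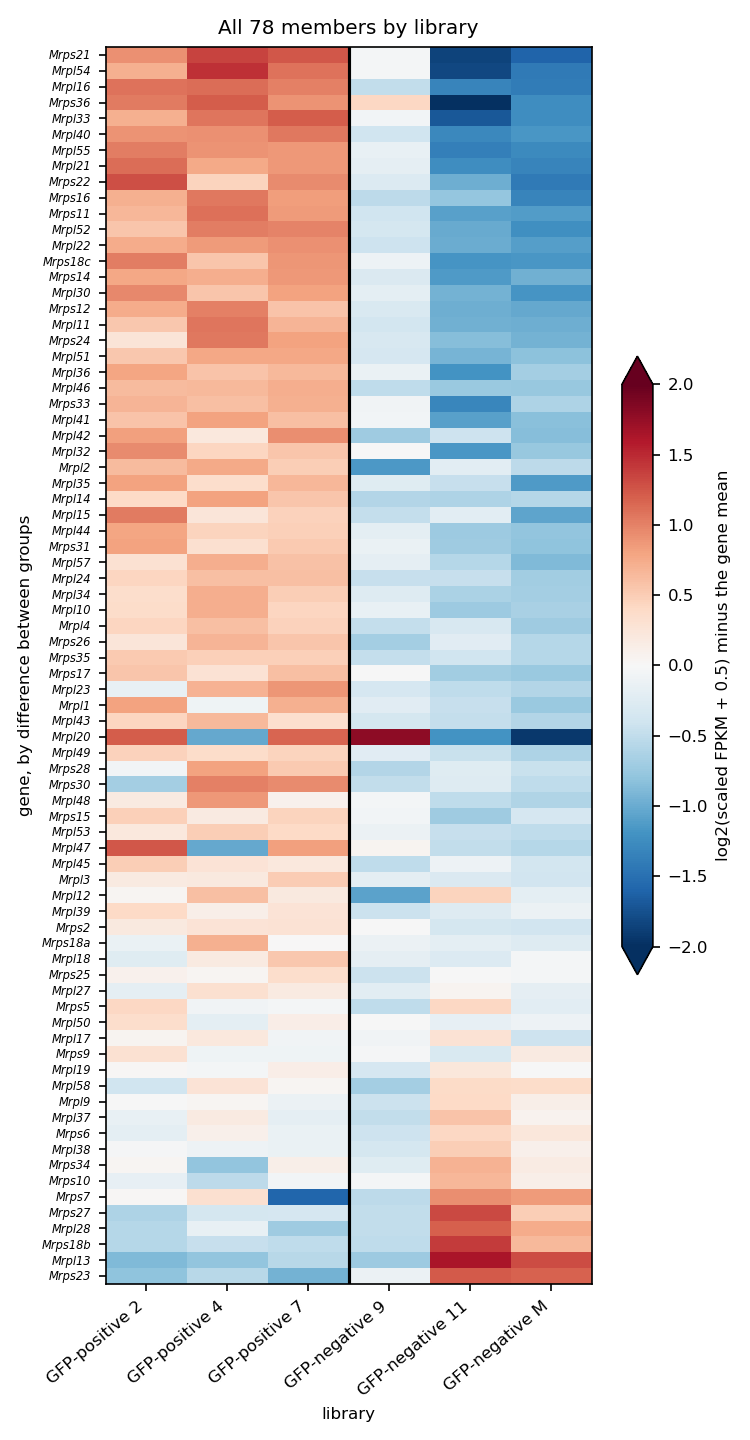
Log2(scaled FPKM + 0.5) of each of the 78 genes (rows) in the 6 libraries (columns, GFP-positive to the left), shown relative to the gene's mean. GFP-negative 9 lay between GFP-positive libraries and GFP-negative 11 and M for many genes that rose, as in Mrps21 with 68.6 scaled FPKM in GFP-negative 9.

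Symbols do not always give a protein's place. Mrps18a, Mrps18b and Mrps18c are paralogues of which the last is the bacterial-type small-subunit protein, Mrps18b is a small-subunit protein at another place, and Mrps18a sits in the large subunit. Mrps18c (chr5:100946493-100952337) had 54.5, 39.2 and 48.9 scaled FPKM in GFP-positive 2, 4 and 7, against 24.5, 11.3 and 11.5 in GFP-negative 9, 11 and M, a log2 difference of 1.64 (SE 0.34, limma adjusted p = 0.0141). Mrps18a had 18.0, 33.0 and 19.9 scaled FPKM in GFP-positive 2, 4 and 7, against 18.3, 17.3 and 16.5 in GFP-negative 9, 11 and M, without passing the test (log2 difference 0.38, limma adjusted p = 0.330). Mrps18b had 3.97, 4.33 and 4.15 scaled FPKM in GFP-positive 2, 4 and 7, against 4.18, 17.1 and 9.89 in GFP-negative 9, 11 and M, likewise without passing (log2 difference -1.03, limma adjusted p = 0.109). The paralogues thus ranged over both sides of 0, and Mrps18c alone of these 3 passed the test, though differences between them were not tested.

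Mrps36 (chr13:100872463-100881167, minus strand), the gene outside the ribosome, had 47.7, 54.1 and 43.2 scaled FPKM in GFP-positive 2, 4 and 7, against 30.7, 4.23 and 9.43 in GFP-negative 9, 11 and M. The log2 difference was 2.10 (SE 0.58, limma adjusted p = 0.0321), with GFP-negative 9 far closer to the GFP-positive libraries than to GFP-negative 11. The Mrps36 call held without GFP-negative 9 and was lost without any one of the other 5 libraries, the log2 difference being 1.43 without GFP-negative 11 (limma adjusted p = 0.0627). Mrps30, which sits in the large subunit despite its symbol, had 3.44, 12.1 and 11.6 scaled FPKM in GFP-positive 2, 4 and 7, against 3.96, 4.75 and 3.94 in GFP-negative 9, 11 and M. GFP-positive 2 lay below all GFP-negative libraries for Mrps30, and the test was not passed (log2 difference 0.85, limma adjusted p = 0.176). Without GFP-positive 2, Mrps30 passed, with a log2 difference of 1.42 (limma adjusted p = 0.0239). The tables hold pseudogene rows named for Mrpl23, Mrpl27, Mrpl48 and Mrps36, with which reads may be shared, and these 4 genes are uncertain to that degree.

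Mrps23 (chr11:88095214-88102333, plus strand), a mitochondria-specific protein of the small subunit, was the gene that fell. It had 2.59, 3.16 and 2.31 scaled FPKM in GFP-positive 2, 4 and 7, against 4.47, 12.1 and 11.7 in GFP-negative 9, 11 and M. The groups did not overlap, with GFP-negative 9 nearest to the GFP-positive libraries. The log2 difference was -1.53 (SE 0.39, limma adjusted p = 0.0237), and the call was lost without GFP-positive 2, 4 or 7 or without GFP-negative 11 or M. Its transcripts differed between libraries: ENSMUST00000118784 led in GFP-negative M with 8.97 FPKM, while ENSMUST00000024486 led in the other 5 libraries with 1.81 to 5.94 FPKM, as deposited.

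Without GFP-negative 9, limma called 5 genes lower, Mrps23, Mrpl13, Mrpl28, Mrps18b and Mrps27. In that fit 18.2% of all features were lower. Mrpl13, a bacterial-type large-subunit protein, had 3.12, 3.35 and 4.03 scaled FPKM in GFP-positive 2, 4 and 7, against 3.50, 20.2 and 16.0 in GFP-negative 9, 11 and M. GFP-negative 9 was thus within the GFP-positive range, and over all 6 libraries Mrpl13 did not pass (log2 difference -1.48, SE 0.56, limma adjusted p = 0.0778). Mrpl28, also of the bacterial type, had 8.97, 12.2 and 8.04 scaled FPKM in GFP-positive 2, 4 and 7, against 9.44, 31.6 and 22.9 in GFP-negative 9, 11 and M. Mrps27, an RNA-binding protein specific to the mitochondrial small subunit, had 2.93, 3.62 and 3.67 scaled FPKM in GFP-positive 2, 4 and 7, against 3.24, 12.6 and 6.92 in GFP-negative 9, 11 and M. Both showed the same arrangement and did not pass over the 6 libraries, at limma adjusted p = 0.122 for Mrpl28 and 0.152 for Mrps27. Mrpl28 and Mrps27 were named after their values were seen.

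Several genes of low level did not pass. Mrps10, a bacterial-type small-subunit protein and the gene with the lowest mean at 2.31 scaled FPKM, had 1.93, 1.39 and 2.11 in GFP-positive 2, 4 and 7, against 2.16, 3.80 and 2.45 in GFP-negative 9, 11 and M (log2 difference -0.50, limma adjusted p = 0.233). Its groups did not overlap, but by less than the spread within them. Mrpl19, a bacterial-type large-subunit protein, had 3.61, 3.42 and 3.92 scaled FPKM in GFP-positive 2, 4 and 7, against 2.71, 4.21 and 3.53 in GFP-negative 9, 11 and M (log2 difference 0.08, limma adjusted p = 0.843). Mrps25 had 3.32, 3.21 and 4.12 scaled FPKM in GFP-positive 2, 4 and 7, against 2.18, 3.09 and 3.00 in GFP-negative 9, 11 and M (log2 difference 0.32, limma adjusted p = 0.375). In the named transcripts of Mrps7, which encodes a small-subunit protein that helps organise the head, 1 GFP-positive library stood apart. They gave 4.91, 6.15 and 1.27 scaled FPKM in GFP-positive 2, 4 and 7, against 3.22, 9.69 and 9.10 in GFP-negative 9, 11 and M (log2 difference -0.84, limma adjusted p = 0.281). Without GFP-positive 7 the log2 difference of Mrps7 was -0.23. An assembled isoform at this locus has no gene name and had 3.47 FPKM as deposited in GFP-positive 7. With it added, Mrps7 had 5.45, 7.62 and 4.83 scaled FPKM in GFP-positive 2, 4 and 7, against 5.96, 10.2 and 9.27 in GFP-negative 9, 11 and M. The log2 difference was then -0.46 (limma adjusted p = 0.241).

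For Mrpl20 the named transcripts give an incomplete picture. Mrpl20 encodes a bacterial-type large-subunit protein at chr4:155887335-155894432 on the plus strand. Its named transcripts gave 28.6, 5.70 and 27.6 scaled FPKM in GFP-positive 2, 4 and 7, against 43.2, 4.99 and 2.80 in GFP-negative 9, 11 and M, the widest range within the GFP-negative group and close to the widest within the GFP-positive one (log2 difference 0.89, SE 0.95, limma adjusted p = 0.493). Leaving out 1 library moved this value between 0.11, without GFP-negative M, and 2.00, without GFP-negative 9, where it passed (limma adjusted p = 0.0486). The same locus holds an assembled isoform with no gene name, of 5 exons and 1060 nt, at 48.4, 78.6 and 58.8 FPKM as deposited in GFP-positive 2, 4 and 7, against 0.28, 7.85 and 9.52 in GFP-negative 9, 11 and M. With that isoform added, Mrpl20 had 72.4, 92.4 and 88.0 scaled FPKM in GFP-positive 2, 4 and 7, against 43.1, 13.5 and 11.9 in GFP-negative 9, 11 and M. The groups then no longer overlapped, and the log2 difference was 2.10 (SE 0.45, limma adjusted p = 0.0136).

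Adding unnamed isoforms at every named locus, 12 of them at these genes, brought 49 of the 78 genes past the threshold as higher and 2 as lower. Of all features 16.6% were then higher and 13.7% lower. Besides Mrpl20, the log2 difference passed for Mrpl47 at 1.16 (limma adjusted p = 0.0251), for Mrps30 at 0.98 (limma adjusted p = 0.0192) and for Mrpl13 at -1.44 (limma adjusted p = 0.0495). By named transcripts alone Mrpl47, a large-subunit protein near the exit of the peptide tunnel, had 7.71, 1.20 and 5.60 scaled FPKM in GFP-positive 2, 4 and 7, against 3.10, 1.96 and 1.83 in GFP-negative 9, 11 and M. Without GFP-positive 4, the log2 difference of Mrpl47 was 1.39 (limma adjusted p = 0.0415), against 0.68 with it. With its unnamed isoform GFP-positive 4 stood at 4.05 scaled FPKM, above all GFP-negative libraries.

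Transcript length moved with the difference over all features. Lengths were weighted by FPKM, and the genes were split by length into 3 equal groups. Of the 26 shortest genes (432 to 995 nt) 18 rose, which is 69.2%, with a median log2 difference of 1.38, while 38.1% of all features of those lengths rose, with a median of 0.82. Of the 26 of intermediate length (1012 to 1780 nt) 14 rose (53.8%), with a median of 0.90, against 23.9% and 0.45 for features of those lengths. Of the 26 longest (2114 to 5877 nt) 10 rose (38.5%), with a median of 0.73, against 5.29% and -0.19. The share that rose was thus lower at greater length among these genes and among all features, and within each length range it was higher among these genes. Over the 78 genes the Spearman correlation of length with difference was -0.42, a description over genes that share the same 6 libraries. With the length trend over all features removed, 19 genes rose, 1 fell and the median was 0.68, where 5.49% of all features rose and 7.35% fell. Of the 42 genes called higher in the main fit, 18 kept the call after this removal, Mrpl16, Mrpl40, Mrpl55, Mrps16 and Mrps22 among them. Mrps21 stood at 1.40 and lost it (limma adjusted p = 0.0578), as did Mrpl33, Mrpl54, Mrpl52, Mrpl21, Mrps18c and Mrps36. The part of length in the difference was not tested.

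**Figure D4:**
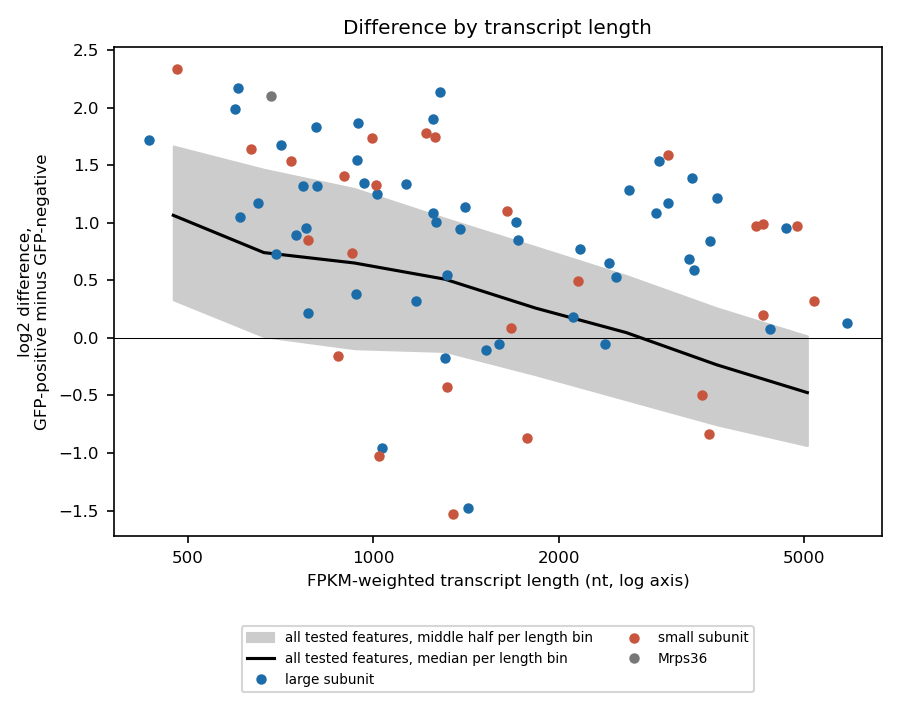
Log2 difference, GFP-positive minus GFP-negative, against FPKM-weighted transcript length in nt (log axis), 1 point for each of the 78 genes, with the median and interquartile band of all tested features. Points of the longest genes, from 2114 nt, had a median of 0.73 where features of those lengths had a median of -0.19.

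GFP-negative 9 held an intermediate place for most genes that rose. Among the 42, it was the highest of the GFP-negative libraries for 35 and the lowest for 2, and it stood at least 1.5 times above both others for 22. Among all features that rose it was the highest for 62.4%. On the log2 scale it lay 0.39 of the way from the mean of GFP-negative 11 and M to the GFP-positive mean, as a median over the 42 genes, against 0.21 over all features that rose. For the 13 genes with a difference below 0, GFP-negative 9 was the lowest of its group in all 13, at a median place of 1.04, that is, at the GFP-positive mean. Among all features that fell it was the lowest for 75.5%, at a median place of 0.36, but these are called features, whereas 1 of the 13 genes was called. The GFP-positive libraries showed less order, with replicates 2, 4 and 7 the highest for 13, 20 and 9 of the 42 genes.

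Some of these genes start close to another tested gene on the opposite strand. Starts were those of each gene's most abundant named transcript. Within 1000 bases, 26 of the 78 have such a tested partner, Mrps11 and Mrpl46 being each other's. The share of all genes with such a partner was not counted. Of the 24 partners outside the group 3 rose and 4 fell, where 14.5% and 11.4% of all features did. The median log2 difference of these partners was 0.23. Whether a gene and its partner change together was not tested. Mrpl40 starts 204 bases from Hira, a histone chaperone gene, which had 4.24, 4.29 and 4.11 scaled FPKM in GFP-positive 2, 4 and 7, against 6.64, 14.4 and 12.6 in GFP-negative 9, 11 and M. Hira thus fell (log2 difference -1.25, SE 0.32, limma adjusted p = 0.0244) where Mrpl40 rose. Mrpl14, with 24.5, 32.4 and 27.3 scaled FPKM in GFP-positive 2, 4 and 7, against 12.1, 11.9 and 12.3 in GFP-negative 9, 11 and M, also rose (log2 difference 1.17, limma adjusted p = 0.0128). Its partner Tmem63b, a membrane channel gene, fell (log2 difference -1.48, SE 0.28, limma adjusted p = 0.0111).

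In 2 pairs both genes rose. Mrpl32, whose protein must be cleaved before it joins the large subunit, starts 75 bases from Psma2, a proteasome subunit gene, and their log2 differences were 1.29 (limma adjusted p = 0.0278) and 1.71 (limma adjusted p = 0.0124). Mrpl49 starts 59 bases from Fau, which encodes the cytosolic ribosomal protein S30 fused to a ubiquitin-like peptide, and their log2 differences were 0.85 (limma adjusted p = 0.0320) and 1.28 (limma adjusted p = 0.0234). Ppp1r10, beside Mrps18b, fell with a log2 difference of -2.35 (limma adjusted p = 0.0076), and Gga3, beside Mrps7, fell with a log2 difference of -1.28 (limma adjusted p = 0.0334). Tcp1, a chaperonin subunit gene beside Mrpl18, rose with a log2 difference of 1.01 (limma adjusted p = 0.0428).

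**Figure D5:**
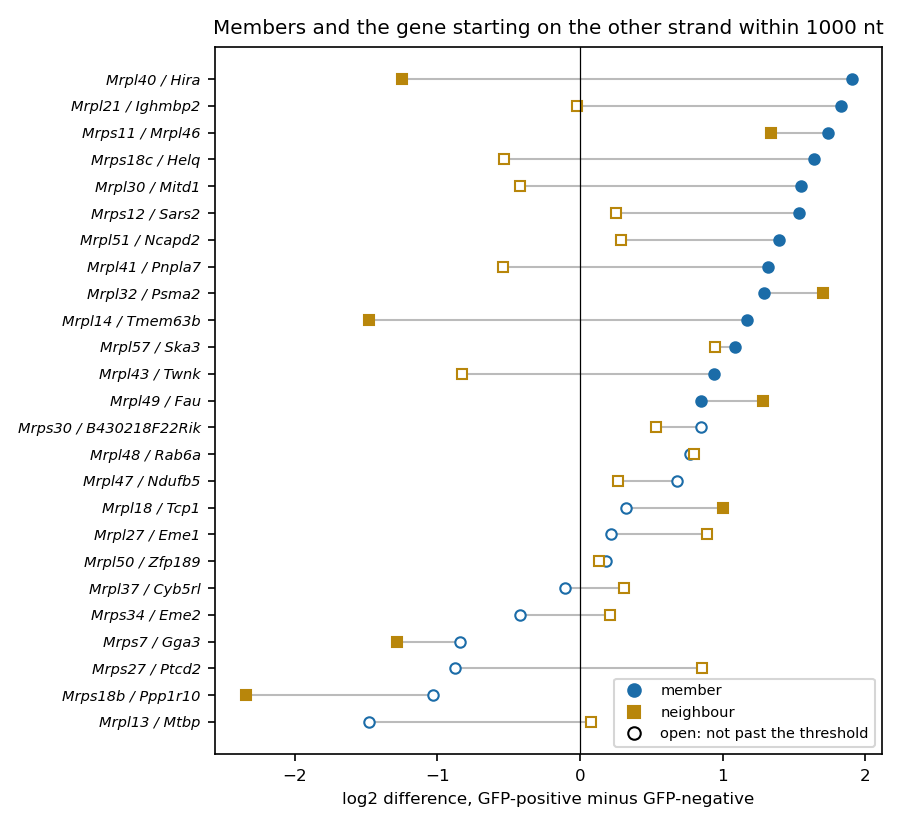
Log2 difference, GFP-positive minus GFP-negative, on the horizontal axis, 1 row for each pair. A circle marks the mitochondrial ribosomal protein gene and a square the neighbour that starts on the opposite strand, with open symbols where the test was not passed. Mrpl40 at 1.91 and Hira at -1.25 lie on opposite sides of 0, while Mrpl32 at 1.29 and Psma2 at 1.71 lie on the same side.

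Other genes of mitochondrial translation are given by list, with no list tested against another. Of the 5 subunits with other symbols 3 rose, with a median log2 difference of 1.16: Gadd45gip1 at 1.31 (limma adjusted p = 0.00969), Chchd1 at 1.75 (limma adjusted p = 0.0108) and Aurkaip1 at 1.16 (limma adjusted p = 0.0176). Dap3 (0.97, limma adjusted p = 0.0889) and Ptcd3 (0.66, limma adjusted p = 0.139) did not pass, and none of the 5 was lower, with 0 at an unadjusted p under 0.05. Of 27 assembly factors 3 rose (11.1%) and 1 fell (3.70%), with a median of 0.39, both shares below the 14.5% and 11.4% of all features. The risers were Rbfa, a small-subunit maturation factor (1.34, limma adjusted p = 0.0109), Ddx28, a helicase of large-subunit assembly (1.08, limma adjusted p = 0.0221), and Tfb1m, which methylates the small-subunit RNA (1.19, limma adjusted p = 0.0242). Afg3l2, a subunit of the protease that cleaves the Mrpl32 protein, fell (-1.31, limma adjusted p = 0.0209).

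Of 18 translation factors 4 rose (22.2%) and 0 fell by limma's adjusted p, where 14.5% and 11.4% of all features did. At an unadjusted p under 0.05, 0 of these factors were lower, and their median log2 difference was 0.30. Those with the lowest adjusted p are Mtrfr, a release factor homologue that rescues stalled ribosomes (1.05, limma adjusted p = 0.0182), Tsfm, the nucleotide exchange factor of the elongation factor Tufm (1.05, limma adjusted p = 0.0232), and Mrrf, the ribosome recycling factor (0.92, limma adjusted p = 0.0337). The ribosomal RNA genes of the mitochondrial genome matched no row and were not analysed here. Of 76 cytosolic ribosomal protein genes 54 rose and 0 fell by limma's adjusted p, with 1 lower at an unadjusted p under 0.05, and the median was 1.37. Their summed level was 40763 to 48761 scaled FPKM in GFP-positive libraries and 13577 to 20068 in GFP-negative libraries. Rpl21 rose by a log2 difference of 2.47, Rpsa by 2.12 and Rps28 by 1.73.

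Markers of cell types moved with the groups as follows. Of 24 Sertoli markers 22 were tested, 2 rose, Dmrt1 (log2 difference 1.10, limma adjusted p = 0.0145) and Defb36 (2.10, limma adjusted p = 0.0408), and 5 fell, of which Sox9 (-1.91, limma adjusted p = 0.00801), Gdnf (-1.26, limma adjusted p = 0.0153) and Tjp1 (-1.55, limma adjusted p = 0.0231) had the lowest adjusted p. Of the tested Sertoli markers 9.09% thus rose and 22.7% fell, where 14.5% and 11.4% of all features did. The summed Sertoli level was 2564 to 3961 scaled FPKM in GFP-positive libraries and 1234 to 4022 in GFP-negative libraries. Of 20 germ cell markers 14 averaged at least 0.5 FPKM in GFP-positive libraries and 1 did in GFP-negative libraries. No count of changed germ cell markers is given, because most passed the filter only through the GFP-positive libraries. Their summed level was 42.7 to 172.0 scaled FPKM in GFP-positive libraries and 2.32 to 5.32 in GFP-negative libraries, with Prm1 and Prm2 at 0 in all libraries. Of 31 tested markers of peritubular myoid, Leydig, macrophage, fibroblast, granulosa and endothelial cells, 0 rose and 6 fell by limma's adjusted p, with 0 higher and 12 lower at an unadjusted p under 0.05. Those that fell included Col1a1 (-4.25), Myh11 (-2.49) and Lyz2 (-1.87). Their summed levels were 144.5 to 1939 scaled FPKM in GFP-positive libraries and 373.9 to 959.5 in GFP-negative libraries for 10 myoid markers. For 8 Leydig markers they were 36.8 to 88.0 in GFP-positive against 76.4 to 98.2 in GFP-negative libraries, and for 10 fibroblast markers 92.3 to 157.4 in GFP-positive against 85.6 to 1301 in GFP-negative libraries. The sums were 2.70 to 3.09 in GFP-positive libraries and 4.08 to 9.53 in GFP-negative libraries for 6 macrophage markers. They were 11.8 to 26.9 in GFP-positive against 20.6 to 30.6 in GFP-negative libraries for 6 granulosa markers, and 3.48 to 6.35 in GFP-positive against 7.63 to 13.0 in GFP-negative libraries for 6 endothelial markers. The part of cell type content in the differences of mitochondrial ribosomal protein genes was not tested.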

How the data were processed

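Total RNA was depleted of ribosomal RNA and made into strand-specific libraries with the dUTP method, per the labels' protocols. Reads were handled with Trimmomatic, HISAT2 and StringTie on mm39, per the submitters' processing notes; their settings and versions are not given in the sources used here. The deposited tables give each transcript's FPKM and its coverage signal, as computed by the authors. FPKM is not a count, so no count test was run, and the number of reads is unknown. Because rRNA was removed and RNA was not selected by poly(A), unspliced RNA can enter the values.

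FPKM was summed per gene name; unnamed loci were kept under their own identifier and unnamed isoforms at named loci were left out, which held 5.36 to 8.16% of the FPKM per library. Scaling used the median ratio between libraries over features with a mean of at least 1 FPKM. Features under a mean of 0.5 scaled FPKM, or with a longest transcript under 200 nt, were left out, leaving 15095 of 53135. Differences were fitted with limma 3.58.1 (R 4.3.3) with a mean-variance trend on log2(scaled FPKM + 0.5), over all 6 libraries without covariates. P-values were adjusted by Benjamini-Hochberg at 0.05 over all features. On this scale the change of low genes is understated. Coverage was used only to estimate depth. The fit was tested on simulated data. Tables were handled with Python 3.11.15 and pandas 2.3.3 and drawn with matplotlib 3.10.9.

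Genes named by rule were up to 10 called in each direction with the largest difference and no overlap, the 4 highest and 4 lowest by mean, the Mrps18 paralogues, Mrps30, Mrps36, the 3 with the widest range within each group, and those with a pseudogene row. Of other lists, up to 3 called genes per direction were named by adjusted p. The genes and lists were chosen with earlier results of these data known. No batch is given in the labels. In all, 17 alternatives were run.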

Additional observations from a re-analysis of the deposited data

Results flagged for a closer look

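Of 12 isoforms that the assembly left without a gene name at these loci, 4 were higher in each GFP-positive library than in any GFP-negative library, and so was 1 of 6 pseudogenes. Of all features tested 23.6% separated in this way. These values lie outside the sums of the named genes. They are listed in falling order of their lowest GFP-positive value, in FPKM as deposited. At the Mrpl20 locus the lowest GFP-positive value was 48.4, with 9.52 as the highest GFP-negative value. At Mrpl24, a large-subunit gene, an unnamed isoform had 12.0, 3.02 and 5.39 FPKM in GFP-positive 2, 4 and 7, against 1.48, 0.73 and 1.80 in GFP-negative 9, 11 and M. At Mrpl15 an unnamed isoform had 2.82, 4.02 and 3.59 FPKM in GFP-positive 2, 4 and 7, against 0.51, 1.60 and 2.43 in GFP-negative 9, 11 and M. At Mrps17 an unnamed isoform had 1.77, 1.45 and 1.78 FPKM in GFP-positive 2, 4 and 7, against 0.55, 0.46 and 0.12 in GFP-negative 9, 11 and M. The pseudogene Mrpl23-ps1 had 0.428, 0.574 and 0.529 FPKM in GFP-positive 2, 4 and 7, against 0.294, 0.357 and 0.112 in GFP-negative 9, 11 and M. No test was run on single isoforms.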

How the results depend on the processing

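The median log2 difference of the 78 genes stayed above 0 under every alternative except scaling to an equal sum of FPKM, where it was -0.017 while the median of all features was -0.87. That scaling called 6983 features, with 5 of the 78 genes higher (Mrpl16, Mrpl33, Mrpl40, Mrpl54 and Mrps21) and 12 lower, and 3.54% of all features higher and 42.1% lower. Under it 38 of the 78 genes lay above 0, against 65 with median-of-ratios scaling. Of the genes with their own values under each alternative, those chosen by the naming rule, 6 turned, all uncalled: Mrpl19 (-0.85), Mrpl20 (-0.084), Mrpl47 (-0.18), Mrps18a (-0.65), Mrps25 (-0.59) and Mrps30 (-0.13). Relative to the median of all features the 78 genes then stood 0.85 higher. Without the filter on low values 1085 features were called, 2.07% of all features being higher and 1.15% lower. Of the 78 genes 17 were then higher and 0 lower by limma, 1 being lower at an unadjusted p under 0.05. Array weights, whose estimation gave a convergence warning, called 11098 features, with 61 and 7 of the genes higher and lower, and a median of 1.18. With these weights 38% of all features were higher and 35.6% lower. With the length trend removed 1938 features were called, 5.49% of all features being higher and 7.35% lower. Of the genes 19 were then higher and 1 lower, the median was 0.68 and Mrps18a stood at -0.23. With unnamed isoforms added 49 of the genes were higher and 2 lower, where 16.6% and 13.7% of all features were. Other pseudocounts, a stricter filter, no scaling, quantile normalization and no trend called 40 to 43 of the genes higher and 1 lower. Of all features they called 11.9 to 16% higher and 11 to 13.9% lower.

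Leaving out 1 library at a time gave 448 to 5631 called features. Of the 78 genes 3 to 48 were then higher and 0 to 5 lower by limma (1 to 6 lower at an unadjusted p under 0.05). Of all features 2.1 to 18.9% were higher and 0.858 to 18.2% lower. Mrpl19 moved between -0.080, without GFP-negative 9, and 0.17, without GFP-negative 11. The fewest calls came without GFP-negative M and the most without GFP-negative 9; with 2 libraries left in a group a call needs a closer spread. No paired analysis was possible because the groups share no replicate numbers. The cause of these changes was not tested. FPKM without read counts gives no counting error, so low genes such as Mrps10 cannot be weighed for depth.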

Other observations

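Of the markers of mitochondrial mass, 3 of 17 rose (17.6%) and 0 fell by limma's adjusted p, where 14.5% and 11.4% of all features did. At an unadjusted p under 0.05, 7 of these markers were higher and 2 were lower. The lower ones were Hspa9 (log2 difference -1.16, limma adjusted p = 0.0689) and Cs (-0.75, limma adjusted p = 0.0877), named after their values were seen. The median log2 difference of the 17 markers was 0.14. Vdac3, an outer membrane channel, rose by a log2 difference of 2.69 (limma adjusted p = 0.00668), and the import genes Timm23 and Tomm20 rose by 1.38 and 1.17. The difference from the ribosomal protein genes was not tested.

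The mix of annotated transcript types of the 78 genes differed between groups. Protein-coding transcripts held 92.2 to 93.1% of their FPKM in GFP-positive libraries and 87.7 to 90.8% in GFP-negative libraries. Retained-intron transcripts held 2.83 to 3.39% in GFP-positive libraries and 4.84 to 6.29% in GFP-negative libraries. Transcripts annotated for nonsense-mediated decay held 0.80 to 1.03% in GFP-positive libraries and 0.73 to 1.51% in GFP-negative libraries, with overlap. For 70 of the 78 genes the same transcript led in all 6 libraries, and for Mrpl15, Mrpl28, Mrpl36, Mrpl48, Mrps10, Mrps17, Mrps23 and Mrps34 it differed.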
